A study of Mus musculus with 4 samples.

Results

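Toll-like receptors (TLRs) are the sensors by which macrophages recognize microbial molecules, and CD14 and MD-2, the product of Ly96, are the co-receptors with which TLR4 binds lipopolysaccharide (LPS). Here 10 genes of this group were followed in RNA-sequencing of bone marrow derived macrophages (BMMs): Tlr1, Tlr2, Tlr4, Tlr6, Tlr7, Tlr8, Tlr9, Tlr13, Cd14 and Ly96. They were chosen by gene name out of the 34745 genes of the deposited table, and all 10 were found there. The wild-type BMMs came from male C57BL/6 mice of 8 weeks. They were held without FBS for 12 h and then given RANKL at 100 ng/mL, the cytokine that drives macrophages toward osteoclasts, with dimethyl itaconate (DI) or DMSO as vehicle for 24 h. Each of the DI and DMSO groups had 2 libraries, and both groups received RANKL. The sample labels give the dose of DI as 20 mM, whereas the methods of the study write the unit as μM. The labels do not say whether the libraries of a group came from separate mice or cultures, so p-values measure only the spread between these libraries.

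TLR2 pairs with TLR1 or TLR6 at the cell surface to bind bacterial lipopeptides. TLR4 with MD-2 binds LPS that CD14 delivers to it. TLR7, TLR8, TLR9 and TLR13 sit in endosomes and bind nucleic acids. Most TLRs signal through the adaptor MyD88 to NF-κB, and NF-κB is also used by RANK, the receptor of RANKL.

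The libraries held between 16085692 and 19403480 counts. Levels are given as CPM, which are counts divided by the size of the library, with sizes scaled by TMM, a factor that corrects for a few abundant genes taking up a library. All 10 genes passed the filter on low counts and were tested among 12590 genes with edgeR's quasi-likelihood test, with p-values adjusted by the Benjamini-Hochberg method and a threshold of 0.05. Fold changes are those of DI over DMSO, and SE stands for their standard error. Of the 8 macrophage markers (such as Csf1r and Adgre1) none was at 0, and their summed level was 22500 to 23380 CPM with DMSO and 28710 to 29510 CPM with DI. Most of this sum was Lyz2, at 17630 to 18290 CPM with DMSO and 22770 to 23790 CPM with DI, whereas Csf1r went from 1284 to 1342 CPM to 1368 to 1410 CPM. Of these 8 markers, 5 were higher and 1 was lower with DI. Osteoclast markers summed to 105.8 to 112.4 CPM with DMSO and 64.59 to 70.5 CPM with DI, 3 of the 4 tested were lower, and Calcr was at 0. Summed markers of plasmacytoid dendritic cells, a cell type rich in TLR7 and TLR9, reached at most 0.6004 CPM, with Siglech and Klk1 at 0. Those of conventional dendritic cells reached at most 0.8739 CPM. The B cell list summed to 10.74 to 11.77 CPM with DMSO and 21.32 to 23.47 CPM with DI, nearly all of it Ighm, with Pax5 at 0. Neutrophil markers summed to 8.375 to 9.966 CPM with none called, although Ly6g was at 0. T and NK cell markers summed to at most 1.049 CPM, with Cd3e at 0, and erythroid markers to at most 0.2147 CPM, with Hba-a1 at 0. Mast cell and basophil markers summed to at most 0.06004 CPM, and stromal markers summed to 39.03 to 45.57 CPM with none called. The part of these shifts in the results below was not tested, and in bulk RNA a change in the number of cells of a type cannot be told apart from a change in RNA per cell.

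With DI, 4 of the 10 genes had an adjusted p under 0.05, where 14.8% of all tested genes did. Tlr13 and Tlr8 were higher, and Tlr2 and Cd14 were lower. Among all tested genes 7.14% were called higher and 7.70% lower. The median log2 fold change of the 10 genes was 0.10, against 0.00 over all tested genes. The CPM of the 2 groups did not overlap for 8 of the 10 genes, against 58.6% of all tested genes. Among the 8 was Tlr7, whose groups did overlap without the TMM scaling.

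**Figure D1:**
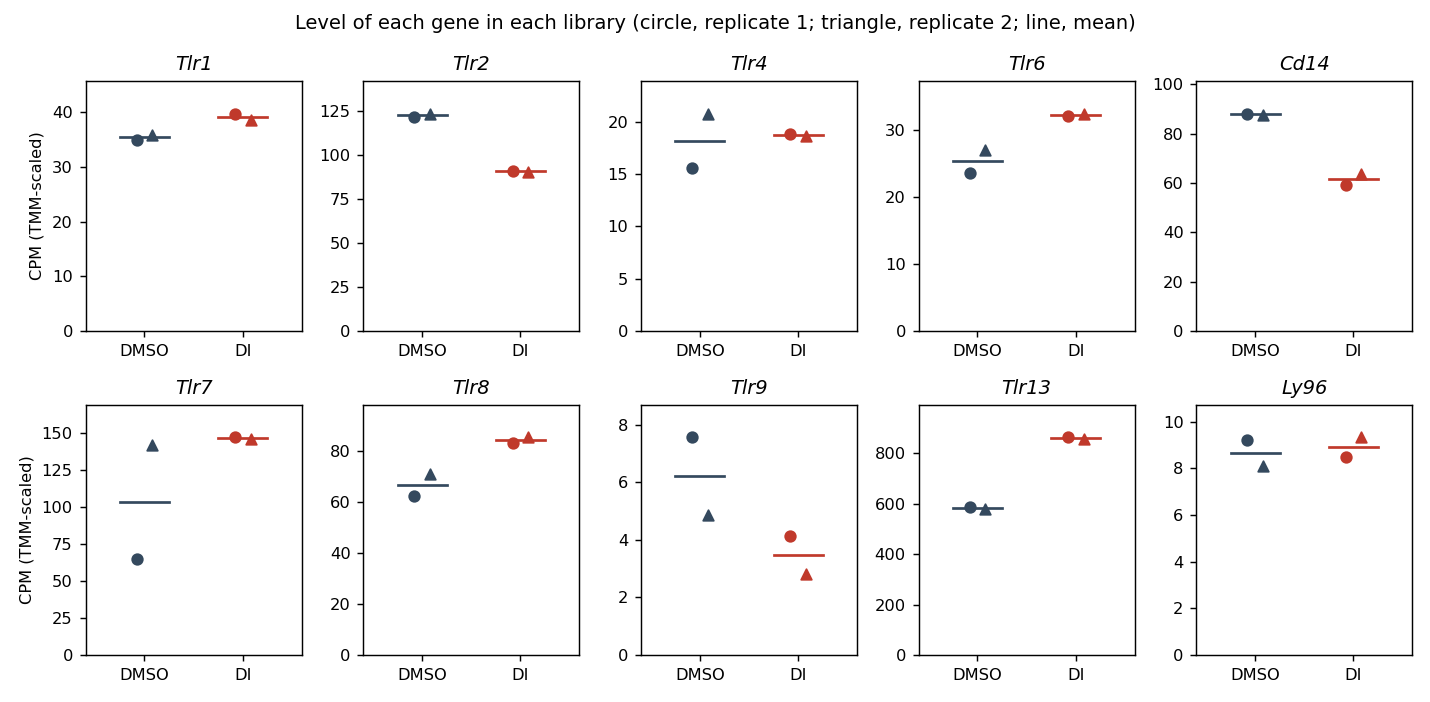
Level of each of the 10 genes in each library, in CPM on axes that start at 0, with DMSO in blue and DI in red, replicate 1 as a circle, replicate 2 as a triangle and the mean of 2 libraries as a line. Tlr13 and Tlr8 lie higher with DI, Tlr2 and Cd14 lie lower, and the DMSO libraries of Tlr7 lie far apart, at 64.9 and 142 CPM.

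Levels can be compared between genes only per length, for which the deposited FPKM served. Tlr13 was the most abundant of the 10 genes, with 145 and 144 FPKM in the DMSO libraries and 199 and 198 FPKM in the DI libraries. Cd14 followed, with a mean of 47.8 FPKM over the 4 libraries, and Tlr2 with 35.5 FPKM, and Cd14 was above Tlr2 in 4 of 4 libraries although their ranges overlapped. Tlr7 and Tlr8 had means of 10.8 and 9.62 FPKM and Tlr6, Tlr1 and Ly96 of 6.95, 6.04 and 5.55 FPKM. Neither the neighbors Tlr7 and Tlr8 nor Tlr6, Tlr1 and Ly96 were separated beyond their spread. Tlr4 had a mean of 2.73 FPKM and Tlr9, the lowest, of 1.41 FPKM.

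The FPKM levels carry a limit that differs between genes. The gene length that follows from counts and FPKM was 11508 bases for Tlr7 and 7810 bases for Tlr8, where their merged exons in GENCODE M21 cover 4082 and 3586 bases, 2.82 and 2.18 times less. For Tlr2 and Tlr9, which have 1 annotated transcript each, both lengths were the same, at 3014 and 3478 bases. As CPM per kilobase of merged exons, the mean of Tlr7 was 30.6 and that of Tlr2 was 35.4, Tlr2 was above Tlr7 in 2 of 4 libraries, and Tlr1 (11.1) stood above Ly96 (8.61) and Tlr6 (7.72). The first 5 ranks and the last 2 were the same on both scales. Length cancels in every comparison of DI with DMSO for 1 gene.

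Among the lipopeptide receptors, Tlr2 was lower with DI while its partners were not. Tlr2 (ENSMUSG00000027995, chromosome 3 from 83836272 to 83841767, GRCm38) encodes the shared chain of both heterodimers. It had 2266 and 2055 counts with DMSO and 1558 and 1695 with DI, or 122 and 123 CPM against 90.8 and 90.4 CPM. The libraries of a group nearly coincided and the groups were well apart. The log2 fold change was -0.44 (SE 0.045, adjusted p = 0.00328, edgeR), a level 0.739 times that with DMSO.

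Tlr1 (ENSMUSG00000044827, chromosome 5 from 64924679 to 64933563) had 34.9 and 35.9 CPM with DMSO and 39.7 and 38.6 CPM with DI. The groups did not overlap, yet its log2 fold change of 0.15 (SE 0.065) did not pass (adjusted p = 0.198, edgeR), and the 95% interval ran from -0.01 to 0.30. With libraries scaled by size only it was 0.042 (adjusted p = 0.695, edgeR). Tlr6 (ENSMUSG00000051498, chromosome 5 from 64952031 to 64960097) had 23.6 and 27.1 CPM with DMSO and 32.0 and 32.4 CPM with DI. Both DI libraries were above both DMSO libraries. The log2 fold change was 0.35 (SE 0.090) with an adjusted p of 0.0540 by edgeR, just outside the threshold. It was 0.25 without DMSO replicate 1 and 0.45 without DMSO replicate 2. With libraries scaled by size only it was 0.246 (adjusted p = 0.113, edgeR).

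Tlr1 and Tlr6 are close copies of one another, and how the counting treated reads that fit both genes is not given in the sources used here. Their transcripts align over 1076 bases at 94.9% identity, and Tlr1 also shares stretches of at least 100 bases at 90% identity or more with 31 genes outside this group. No such stretch was found in the other 8 genes, and no exon of the 10 genes overlaps an exon of another gene in GENCODE M21. The longest run of identical bases in the coding sequences of Tlr1 and Tlr6 has 229 bases. It is printed in sense direction because a read that lies inside it fits both genes equally by its own sequence. In GRCm38 it lies on the minus strand at chr5:64925537-64925765 in Tlr1 and at chr5:64953828-64954056 in Tlr6.
Tlr1 and Tlr6, identical run: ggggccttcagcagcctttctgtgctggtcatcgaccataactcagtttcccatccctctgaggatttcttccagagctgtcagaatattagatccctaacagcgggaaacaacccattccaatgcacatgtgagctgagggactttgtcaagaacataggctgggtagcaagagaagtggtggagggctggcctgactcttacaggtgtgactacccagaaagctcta
If each such read was counted once, for either Tlr1 or Tlr6, the sum of both genes does not depend on how the reads were divided. The sum was 58.5 and 63.0 CPM with DMSO and 71.8 and 71.0 CPM with DI, so the groups did not overlap.

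Of the LPS receptor, Cd14 was lower with DI. Cd14 (ENSMUSG00000051439, chromosome 18 from 36725074 to 36726736) encodes the surface protein that passes LPS to TLR4 and MD-2. It had 1640 and 1459 counts with DMSO and 1018 and 1193 with DI, or 88.0 and 87.6 CPM against 59.3 and 63.6 CPM. The groups were far apart relative to the spread within them. On the log2 scale Cd14 was lower, at -0.51 (SE 0.061, adjusted p = 0.00475, edgeR).

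For the signaling receptor itself no change was detected. Tlr4 (ENSMUSG00000039005, chromosome 4 from 66827584 to 66930284) had 15.6 and 20.8 CPM with DMSO and 18.9 and 18.7 CPM with DI. Both DI libraries lay between the DMSO libraries, and the log2 fold change was 0.05 (SE 0.15, adjusted p = 0.872, edgeR) with a 95% interval from -0.31 to 0.41. The log2 fold change of Cd14 lies outside that interval, which is not a test of the difference between the genes. Their ratio, given below, could not reach a p under 0.333 by the exact permutation test with 2 libraries per group. With libraries scaled by size only, the value of Tlr4 was -0.056. For Ly96 (ENSMUSG00000025779, chromosome 1 from 16688051 to 16709611) the libraries had 172 and 135 counts with DMSO and 146 and 175 with DI. The groups overlapped, at 9.23 and 8.11 CPM against 8.51 and 9.33 CPM. On the log2 scale Ly96 differed by 0.04 (SE 0.13, adjusted p = 0.878, edgeR), with a 95% interval from -0.29 to 0.37, and -0.063 with libraries scaled by size only.

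Among the endosomal receptors, Tlr13, Tlr8 and Tlr7 had higher mean levels with DI and Tlr9 a lower one, and only Tlr13 and Tlr8 passed the test. Tlr13 (ENSMUSG00000033777, chromosome X from 106143204 to 106160493) encodes a receptor for bacterial ribosomal RNA that mice have and humans lack. It had 10907 and 9678 counts with DMSO and 14821 and 16032 with DI, by far the deepest counts of the group. Its level went from 586 and 581 CPM to 863 and 855 CPM. These values gave the smallest p of the 10 genes, with a log2 fold change of 0.56 (SE 0.032, adjusted p = 5.87e-04, edgeR), a level 1.47 times that with DMSO.

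Tlr8 (ENSMUSG00000040522, chromosome X from 167242696 to 167264329) encodes an endosomal receptor whose human counterpart senses RNA. It had 62.5 and 70.8 CPM with DMSO and 83.1 and 85.4 CPM with DI, so that the groups did not overlap. On the log2 scale Tlr8 was higher by 0.34 (SE 0.075, adjusted p = 0.0344, edgeR). The call was kept without DMSO replicate 2 and lost without any other library. The adjusted p (edgeR) was 0.0591 without DI replicate 1, 0.0782 without DI replicate 2 and 0.0926 without DMSO replicate 1, at log2 fold changes of 0.36, 0.32 and 0.25. With libraries scaled by size only, its adjusted p was 0.0800.

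Tlr7 (ENSMUSG00000044583, chromosome X from 167304929 to 167330558), a receptor for single-stranded RNA and the neighbor of Tlr8, gave no stable comparison because its vehicle libraries differed. It had 1208 and 2360 counts with DMSO and 2525 and 2741 with DI, or 64.9 and 142 CPM against 147 and 146 CPM. In CPM the DI libraries coincided, DMSO replicate 2 lay just under them and DMSO replicate 1 far below. In the deposited FPKM, which are not scaled by TMM, DMSO replicate 2 was above both DI libraries, at 12.7 against 12.3 and 12.3. The groups thus overlapped without TMM. Of the 2791 tested genes of a like level (average log2 CPM within 1), 12 had a difference between the DMSO libraries at least as large, Tlr7 included. The log2 fold change was 0.51 (SE 0.32, adjusted p = 0.354, edgeR), 0.05 without DMSO replicate 1 (adjusted p = 0.634) and 1.18 without DMSO replicate 2 (adjusted p = 0.00154). Such a gap was not seen in Tlr8, at 62.5 and 70.8 CPM, or in Tlr13.

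Tlr9 (ENSMUSG00000045322, chromosome 9 from 106222598 to 106226883), the receptor for unmethylated CpG DNA, was the sparsest gene, with 141 and 81 counts with DMSO and 71 and 53 with DI. Its level was 7.57 and 4.86 CPM against 4.14 and 2.83 CPM. The groups did not overlap, but the spread within each was wide. Its log2 fold change of -0.85 was the largest in size among the 10 genes and did not pass (SE 0.29, adjusted p = 0.110, edgeR), with a 95% interval from -1.55 to -0.14. It was -0.49 without DMSO replicate 1 and -1.14 without DI replicate 1.

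**Figure D2:**
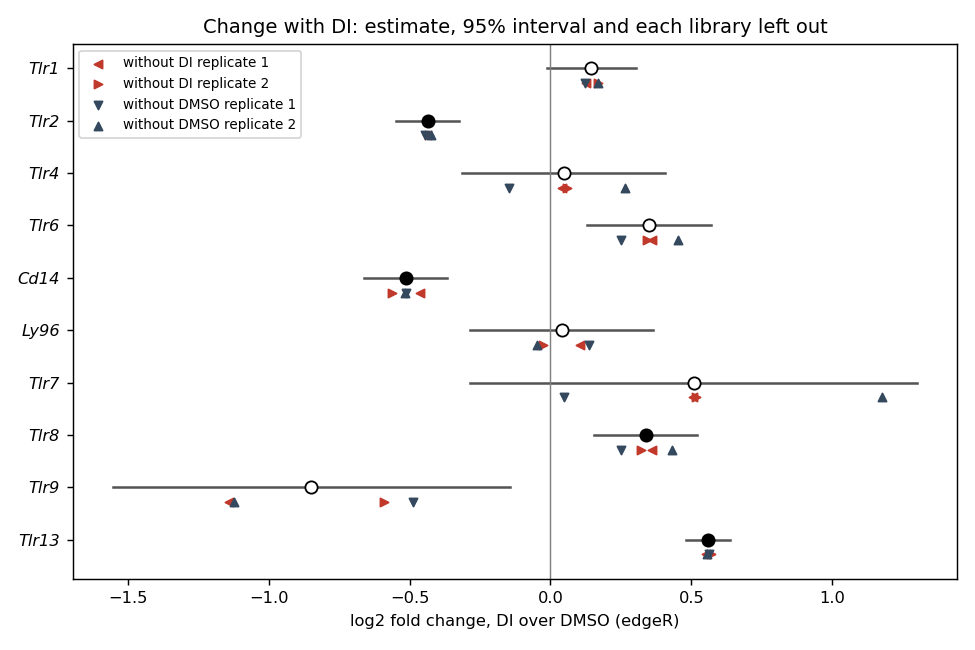
Log2 fold change of DI over DMSO for the 10 genes by edgeR (circles, filled where the adjusted p was under 0.05), with the 95% interval as a line, and below each line the value with each library left out (triangles). Tlr2, Cd14 and Tlr13 stayed close to their value, whereas Tlr7 ranged from 0.05 to 1.18 and Tlr9 from -1.14 to -0.49.

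Sequences upstream of endosomal receptor genes are shown for Tlr8 and Tlr13, which were called higher, and for Tlr9, which had a lower mean level and was not called. RefSeq promoter windows (GRCm38.p6, 250 bases before to 50 bases after a start site) were matched by symbol for 6 of the 10 genes: Tlr1, Tlr2, Tlr6, Tlr8, Tlr9 and Tlr13. The printed parts of these 3 genes lie before every annotated start of the gene, 5′ to 3′ on the gene's strand, and capitals mark motif matches.
Tlr8, chrX:167264330-167264579, minus strand: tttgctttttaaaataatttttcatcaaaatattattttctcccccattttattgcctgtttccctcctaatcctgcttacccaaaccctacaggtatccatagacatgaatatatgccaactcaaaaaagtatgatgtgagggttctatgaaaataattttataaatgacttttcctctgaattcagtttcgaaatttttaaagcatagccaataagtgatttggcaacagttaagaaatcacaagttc
Tlr13, chrX:106143025-106143203, plus strand: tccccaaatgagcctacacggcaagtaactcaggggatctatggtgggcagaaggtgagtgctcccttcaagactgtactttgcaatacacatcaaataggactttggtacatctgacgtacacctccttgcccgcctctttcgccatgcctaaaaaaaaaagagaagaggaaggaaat
Tlr9, chr9:106222348-106222597, plus strand: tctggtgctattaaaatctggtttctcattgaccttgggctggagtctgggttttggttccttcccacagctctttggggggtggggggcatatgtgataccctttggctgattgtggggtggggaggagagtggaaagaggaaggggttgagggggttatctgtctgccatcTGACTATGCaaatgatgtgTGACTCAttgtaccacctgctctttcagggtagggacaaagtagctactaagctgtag

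On both strands, the letters GAGGAAGT (a PU.1 core) were in 3.20% of the 32851 windows of 300 bases, an interferon-stimulated response element core in 3.44%, TGACNNNGC (an antioxidant response element core) in 12.4%, an NF-κB core in 50.8% and TGANTCA (an AP-1 site) in 7.81%. None of these motifs was found in the window of Tlr8 or of Tlr13. The window of Tlr9 held the antioxidant response element core at position -77 and the AP-1 site at -58 from the start site, both in capitals above, and the PU.1 core at 11 after it. The Tlr1 window at start site 64933558 held the PU.1 core at -23. The Tlr6 window at start site 64959166 held the interferon-stimulated core at -116 and -110, and the Tlr6 window at start site 64960048 held the NF-κB core at -99. The window of Tlr2 held the NF-κB core 5 times with overlaps, 2 of them overlapping in the 11 bases in capitals. The whole printed stretch of 30 bases lies on the minus strand at chr3:83841762-83841791, and its last bases lie inside Tlr2 as the deposited table bounds the gene.
Tlr2, stretch with the NF-κB core: taggacacctGGGGAATTCCCacacggagc
These matches describe letters only, and the NF-κB core was present in about as many windows as it was absent from.

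Ratios between 2 genes in the same library do not depend on the scaling between libraries. Their size does depend on the gene lengths behind the FPKM, which cancel when DI is compared with DMSO. With 2 libraries against 2 the smallest two-sided p of an exact permutation test is 0.333, so the ratios are given as values. Tlr1 stood at 0.140 and 0.142 times the FPKM of Tlr2 with DMSO and at 0.214 and 0.209 times with DI. Tlr6 stood at 0.142 and 0.160 times the FPKM of Tlr2 with DMSO and at 0.258 and 0.262 times with DI. The mRNAs of both partners were thus more abundant relative to Tlr2 mRNA in each DI library than in each DMSO library. Reads that fit both Tlr1 and Tlr6 enter these 2 ratios. Cd14 stood at 24.2 and 18.1 times the FPKM of Tlr4 with DMSO and at 13.5 and 14.7 times with DI, while the ratio of Ly96 to Tlr4 overlapped between groups, at 2.52 and 1.67 against 1.92 and 2.13. The log2 ratio differed by 0.58 for Tlr1 to Tlr2, by 0.79 for Tlr6 to Tlr2 and by -0.58 for Cd14 to Tlr4 (exact permutation p = 0.333 for each). The difference for Cd14 to Tlr4 was -0.37 without DMSO replicate 1 and -0.78 without DMSO replicate 2. Tlr6 stood at 1.01 and 1.13 times the FPKM of Tlr1 with DMSO and at 1.20 and 1.26 times with DI. This log2 difference of 0.21 was 0.13 without DMSO replicate 1 and 0.29 without DMSO replicate 2. As CPM per kilobase of merged exons, Tlr6 was instead below Tlr1 in every library, with means of 7.72 and 11.1. The reads that fit both genes also enter this ratio. Tlr9 stood at 0.386 and 0.114 times the FPKM of Tlr7 with DMSO and at 0.0930 and 0.0640 times with DI, a log2 difference of -1.44 that was -0.56 without DMSO replicate 1 and -2.32 without DMSO replicate 2. The ratios of Tlr7 to Tlr8 and of Tlr13 to Tlr7 overlapped between groups, since Tlr7 was low in DMSO replicate 1.

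**Figure D3:**
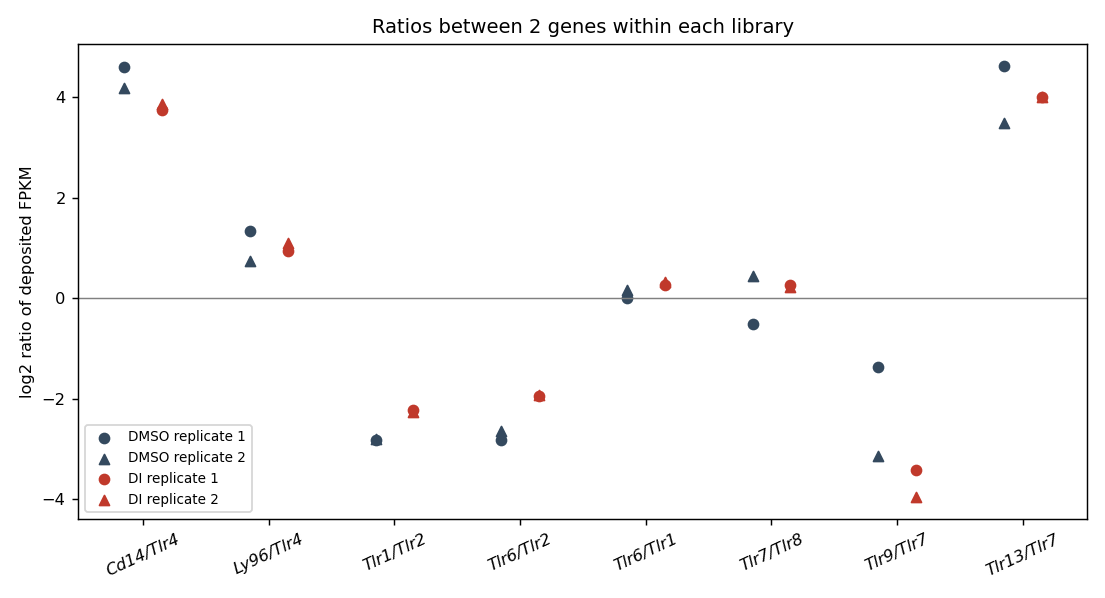
Log2 ratio of the deposited FPKM of 2 genes within each library for 8 pairs, with DMSO in blue and DI in red, replicate 1 as a circle and replicate 2 as a triangle. The ratios of Tlr1 and Tlr6 to Tlr2 lie higher with DI and that of Cd14 to Tlr4 lower, and the pairs with Tlr7 spread widely between the DMSO libraries.

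The other TLR genes were little expressed or not called. Tlr3, the receptor for double-stranded RNA, had 450 and 352 counts with DMSO and 352 and 337 with DI, and a log2 fold change of -0.24 (SE 0.11, adjusted p = 0.228, edgeR). Tlr5, the flagellin receptor, had 11 to 23 counts per library and a log2 fold change of -0.22 (adjusted p = 0.768, edgeR). Tlr11 and Tlr12 had no count in any library, which allows up to 0.160 to 0.180 CPM per library for a floor of 3 counts.

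Lists of genes around the receptors were described in the same fit, each beside 14.8% of all tested genes called (7.14% higher and 7.70% lower). Of 18 genes for accessory and trafficking proteins, 17 were tested, 8 rose and 0 fell, with a median log2 fold change of 0.22 against 0.00 over all tested genes. Cd36, a scavenger receptor that also serves TLR2 and TLR6, rose by 1.09 on the log2 scale (SE 0.032, adjusted p = 1.98e-04, edgeR). The lysosomal proteases Ctsb and Ctss, which can cleave endosomal TLRs into their active form, rose by 0.34 and 0.28, and Slc15a3, an endolysosomal peptide transporter, rose by 0.45 (adjusted p = 0.00298, 0.00317 and 0.00517, edgeR). Unc93b1, which escorts TLRs to endosomes, had a log2 fold change of 0.14 and did not pass (adjusted p = 0.0645, edgeR). Nor did the TLR chaperone gene Hsp90b1 at 0.05, Cd180 at 0.01 and Ly86 at 0.36 (adjusted p = 0.413, 0.894 and 0.0721, edgeR). Lbp was not tested, with 2 to 5 counts per library.

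Of 21 adaptors and kinases, 2 rose, 0 fell and 19 did not pass, with a median log2 fold change of -0.03. Ticam1, which encodes the adaptor TRIF, rose by 0.41 (SE 0.094, adjusted p = 0.0376, edgeR), and Ikbkg, the regulatory subunit of the IκB kinase, rose by 0.45 (SE 0.081, adjusted p = 0.0179, edgeR). Myd88 had a log2 fold change of -0.09 (SE 0.096, adjusted p = 0.585, edgeR), Irak4 of 0.06 and Traf6 of 0.05. Among 4 interferon regulatory factors, Irf7 fell by 1.18 (SE 0.11, adjusted p = 0.00248, edgeR) and Irf8 rose by 0.45 (SE 0.045, adjusted p = 0.00301, edgeR). Irf3 and Irf5 did not pass, at -0.15 and 0.67 (adjusted p = 0.295 and 0.0596, edgeR). The DI libraries of Irf5 lay apart, at 134 and 201 CPM.

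Of 13 inhibitors of TLR signaling, 2 rose, 1 fell and 10 did not pass. The inhibitory receptor genes Cd200r1 and Lilrb4a rose by 0.55 and 0.26 (adjusted p = 0.00298 and 0.00554, edgeR), and Tnip1, a partner of A20, fell by 0.24 (adjusted p = 0.0255, edgeR). Of 12 genes that TLR ligands typically induce, 9 were tested, 0 rose and 2 fell, with a median log2 fold change of 0.01. These were Nfkbiz, which encodes IκBζ, at -0.68 (SE 0.11, adjusted p = 0.0146, edgeR), and Nfkbia, which encodes IκBα, at -0.49 (SE 0.044, adjusted p = 0.00233, edgeR). Tnf had 453 and 402 counts with DMSO and 437 and 436 with DI, a log2 fold change of 0.01 (SE 0.085, adjusted p = 0.970, edgeR). Il1b, Il6 and Il12b had too few counts to be tested, at most 5 in any library.

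Of the 100 genes that the deposited annotation assigns to the KEGG Toll-like receptor signaling pathway, 76 were tested, 6 were higher and 9 were lower with DI, or 15 in all. The median log2 fold change was -0.01. Without the genes that also belong to the group of 10, 67 were tested, 5 were higher and 7 were lower. Among the genes called lower were Cxcl10 (-2.08), Fos (-0.60) and Pik3r5 (-0.43 on the log2 scale), with adjusted p = 9.20e-04, 0.00115 and 0.00186 by edgeR.

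**Figure D4:**
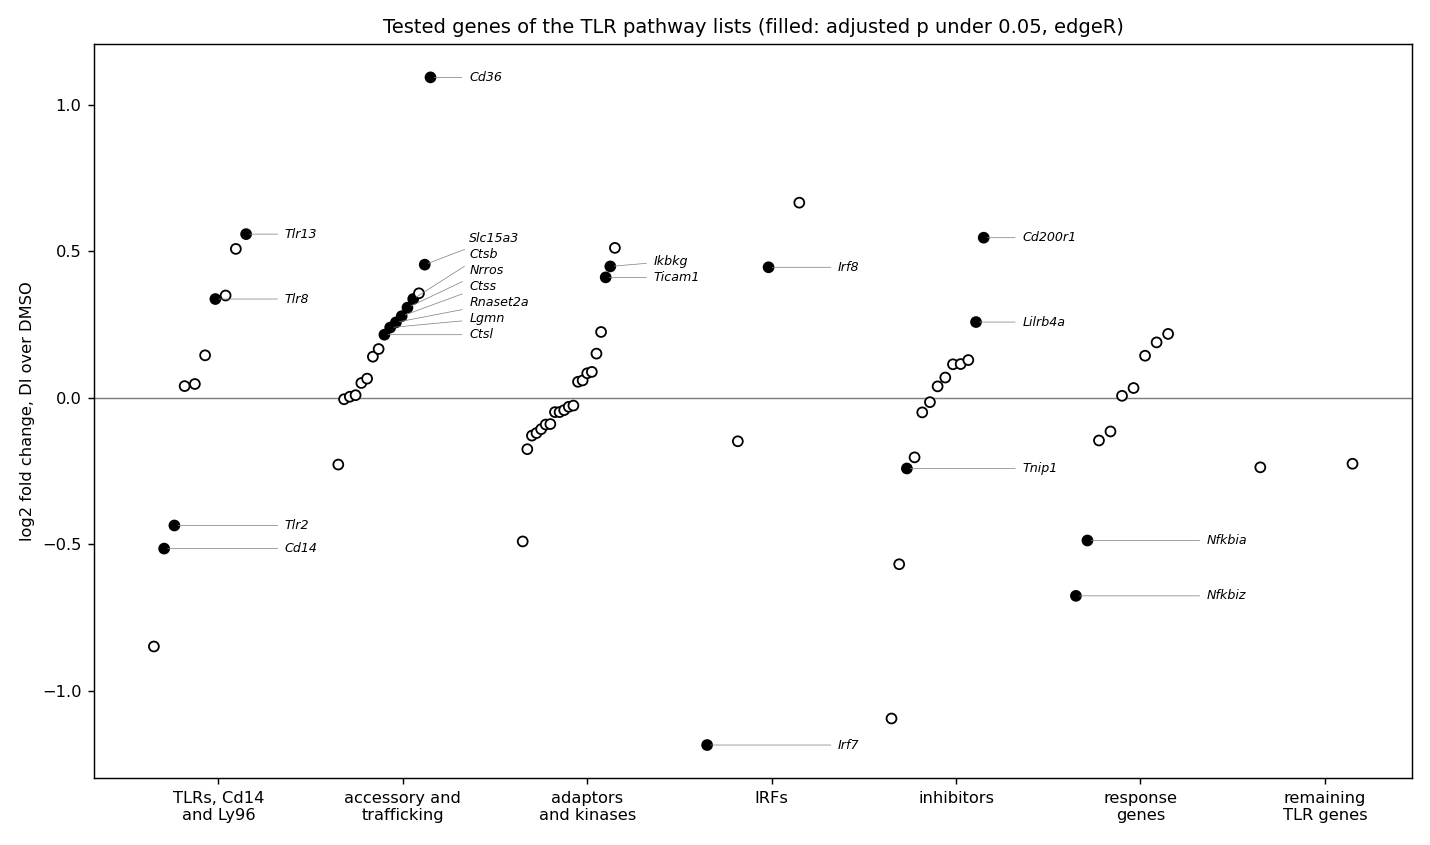
Log2 fold change of DI over DMSO for every tested gene of the group of 10 and of 6 lists around it, ordered by value within each list, with names and filled points where the adjusted p was under 0.05 by edgeR. The called accessory and trafficking genes all lie above 0, and most adaptors and kinases lie near 0.

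Over the 4 libraries, the profiles most like those of the 4 called genes were sought among tested genes of a like level, by the distance between centered log2 CPM values. These were Wdr43 and Kntc1 for Tlr2, Nup107 and Nusap1 for Cd14, Dmxl2 and Dusp3 for Tlr8, and Cd84 and Nrp1 for Tlr13, at distances from 0.0144 to 0.0409. With 4 libraries in 2 groups, likeness reflects little more than a like fold change, and it is given as a description.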

How the data were processed

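Messenger RNA of RANKL-treated BMMs was measured in 2 libraries with DI and 2 with DMSO, grouped by their titles. The authors deposited raw counts per gene and library and FPKM values, which equal counts over gene length and library total with a largest relative error of 3.27e-04. KEGG terms came from the second table, where the same values stand. The submitters' processing notes name GRCm38 and mm10, and the aligner and the counting program are not given in the sources used here. All members, lists, naming rules and tests were chosen with earlier results of these data known. Named are the 10 genes, the remaining TLR genes, up to 4 called genes with the smallest p of each list, and the 2 nearest profiles of each called gene. Some items these rules name are not reported here. Uncalled members of the lists, and IRF, TLR chaperone and cytokine genes, were named after their values were seen.

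The main test was edgeR 4.0.16 under R 4.3.3 (TMM, default filter, quasi-likelihood test with condition as the only term, Benjamini-Hochberg adjustment over 12590 genes). The SE is the size of a log2 fold change over the root of its F statistic. Intervals are at 95%. The depth was 16085692 to 19403480 counts, so that 3 counts correspond to 0.160 to 0.180 CPM, which covers counting error only. Alternatives were DESeq2's size factors, library size only, no filter, at least 10 counts in every library, DESeq2 1.42.0, limma-voom (limma 3.58.1), the replicate number as a block, and each library left out. CPM per kilobase of merged exons was added after the data were seen. Shared sequence was sought with BLAST+ 2.17.0 in GENCODE M21 transcripts. Of these steps, only the main edgeR fit was tested on simulated counts.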

Additional observations from a re-analysis of the deposited data

How the results depend on the processing

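Tlr2, Cd14 and Tlr13 kept their direction and their call under all 11 alternatives, with log2 fold changes from -0.54 to -0.42, -0.62 to -0.46 and 0.46 to 0.57. With libraries scaled by size only, the median over all tested genes was -0.10 on the log2 scale. Then 548 genes were called higher and 1932 lower (899 and 969 with TMM). Of calls, 48.1% were higher with TMM and 22.1% by size only. Of the hand-written lists, 9 genes were higher and 7 lower by size only (13 and 4 with TMM). By size only, 1 of the 10 genes was called higher, and 2 KEGG pathway genes were higher and 15 lower. Tlr4 was then at -0.056 and Ly96 at -0.063. With each library left out, Tlr4 ranged from -0.15 (without DMSO replicate 1) to 0.27, and Ly96 from -0.048 (without DMSO replicate 2) to 0.14, with -0.027 without DI replicate 2. With each library left out, 1087 to 1394 genes were called (558 to 682 higher, 529 to 712 lower), 1 to 4 of the 10 genes were called higher, 2 to 3 genes of the hand-written lists were lower and 2 to 5 KEGG pathway genes were higher. A group left with 1 library is assumed there to vary like the other. The cause was not tested. The call of Tlr8 was lost under 4 alternatives and those of Tlr6 and Tlr9 were gained without the filter on low counts (adjusted p = 0.0318 and 0.0374, edgeR).

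Over all tested genes, libraries with the same replicate number did not deviate together (correlation of deviations from the group means -0.0302). A single correlation over all genes cannot exclude that the libraries were paired, so no conclusion on pairing is drawn from it. With the replicate block 1389 genes were called, 5 of the 10 genes among them, and Tlr9 passed at -0.83 (adjusted p = 0.0454, edgeR). By CPM per kilobase of merged exons, Tlr6 had rank 8 in place of 6, Tlr1 rank 6 in place of 7 and Ly96 rank 7 in place of 8. Tlr9 had 53 to 141 counts per library, and 98 of the 1904 tested genes of a like level, itself included, had DMSO libraries at least as different.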

Other observations

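Some genes of the TLR pathway had wide gaps between the libraries of a group. In CPM, DMSO replicate 1 was the lowest library for Map3k7 and Tnfaip3, as it was for Tlr7. For Mapk14 it was at 82.8 CPM, just under DI replicate 2 at 83.1 CPM, and for Rac1 DMSO replicate 2 was the lowest. The genes were picked out after their values were seen, and a cause of the gaps was not tested. Mapk14, which encodes the kinase p38α, had 1542 and 3092 counts with DMSO and 3443 and 1559 with DI, so that the order of the libraries was opposite in the groups (log2 fold change 0.08, SE 0.49, adjusted p = 0.938, edgeR). Rac1, a small GTPase gene, had 8855 and 3648 counts with DMSO and 8255 and 9006 with DI, with DMSO replicate 2 far below the other libraries (log2 fold change 0.47, SE 0.32, adjusted p = 0.390, edgeR). Map3k7, which encodes the kinase TAK1 below TRAF6, had 608 and 1127 counts with DMSO and 1135 and 1435 with DI, with DMSO replicate 1 the lowest (log2 fold change 0.51, SE 0.31, adjusted p = 0.331, edgeR). Tnfaip3, which encodes the ubiquitin-editing inhibitor A20, had 806 and 1463 counts with DMSO and 907 and 1690 with DI, with replicate 2 the higher one in both groups (log2 fold change 0.13, SE 0.37, adjusted p = 0.859, edgeR).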
